A study of Arabidopsis thaliana with 21 samples.

Results

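GH3.1, GH3.3 and GH3.17 encode enzymes that conjugate the plant hormone auxin to amino acids, and LBD16 encodes a transcription factor of lateral root initiation. The 4 genes were taken by locus: AT2G14960 (GH3.1), AT2G23170 (GH3.3), AT1G28130 (GH3.17) and AT2G42430 (LBD16), each on its brightest probe set that the array annotation gives to a single gene. All 4 were found, each with 1 such probe set, among 17481 probe sets with a gene name. RefSeq places GH3.17 on chromosome 1 and the other 3 on chromosome 2, all as protein-coding genes.

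Auxin steers root growth, bends roots towards gravity and starts lateral roots. Its free form, indole-3-acetic acid, is kept in bounds by synthesis, transport and inactivation. The auxin-conjugating members of the GH3 family of acyl acid amido synthetases join it to amino acids such as aspartate and glutamate, which takes it out of the active pool. Several GH3 genes, GH3.3 among them, are themselves switched on by auxin through the Aux/IAA repressors and the auxin response factors. LBD16, a LATERAL ORGAN BOUNDARIES domain protein, lies downstream of the response factors ARF7 and ARF19 in the founder cells of lateral roots.

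The arrays measured whole roots of wild-type Arabidopsis thaliana, ecotype Wassilewskija (WS), at 12 days of age, grown at 19 °C under 24 h of light. All seedlings, those of the level flight control included, were moved the morning before flight onto wet wipes in Kennedy Space Center Fixation Tubes, which release the preservative RNAlater onto the plants when worked by hand, and were carried on one C-9 aircraft, whose parabolas alternate phases of increased and near-zero gravity. There were 7 groups of 3 arrays. The control was fixed in level flight, 1 min ahead of the first parabola, and parabola 1 start as that parabola began. Midpoint tubes A and B were both fixed in the middle of it, and 3 further groups as parabola 1, 3 or 10 ended. Roots were cut from shoots after fixation. The replicates of a group were root pools from a single tube, so p-values measure the spread between root pools, and stage and tube cannot be told apart. Only the midpoint had a second tube. A gene that rose or fell thus did so from one tube's roots to another's, never within the same roots. In these bulk samples fewer expressing cells cannot be told apart from less RNA per cell.

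Values are log2 expression levels as deposited, and a difference of 1 is a doubling. Differences were tested with limma in a single fit of the 21 arrays, and a gene is said to have risen, fallen or differed where the p-value adjusted over 17481 probe sets was below 0.05. Whether the arrays of a pair of tubes overlap is given as a description. The share of all named probe sets without overlap was not counted. Array medians lay between 2.92 and 3.04. Few of the root and shoot markers were on named probe sets. Of 27 root markers, the root hair expansins EXPA7 and EXPA18 were measured. EXPA7 had group means from 3.83 to 4.17, and EXPA18 from 2.84 to 3.47. EXPA18 was lowest in midpoint tube A (2.84) and at parabola 10 end (2.85), against 3.23 in level flight. EXPA7 was not low in those tubes (3.85 and 3.92), and neither marker differed from level flight in any tube. Of 24 shoot markers 5 were measured, RCA, LHCB4.1, LHCB4.2, PRK and SBPASE, and none differed from level flight in any tube. Their summed linear level was 50.7 to 62.1 in level flight, 62.8 to 69.1 at parabola 1 start, 63.7 to 70.7 in midpoint tube A, 59.4 to 84.9 in midpoint tube B, 55.0 to 68.3 at parabola 1 end, 56.8 to 69.6 at parabola 3 end and 63.0 to 73.7 at parabola 10 end. The summed level of the 2 root markers was 22.4 to 24.6 in level flight and, in the same order of tubes, 25.0 to 32.3, 17.4 to 26.7, 25.7 to 31.9, 20.8 to 32.6, 23.7 to 27.1 and 20.8 to 25.1. The shoot sum at parabola 1 start, in midpoint tube A and at parabola 10 end thus lay above the level flight range on every array. So did the root sum at parabola 1 start and in midpoint tube B. Of the 5 shoot markers, 3 had a mean above level flight at parabola 1 start, 5 in midpoint tube A and 3 at parabola 10 end. The part of either sum in the differences of the 4 genes was not tested.

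**Figure D1:**
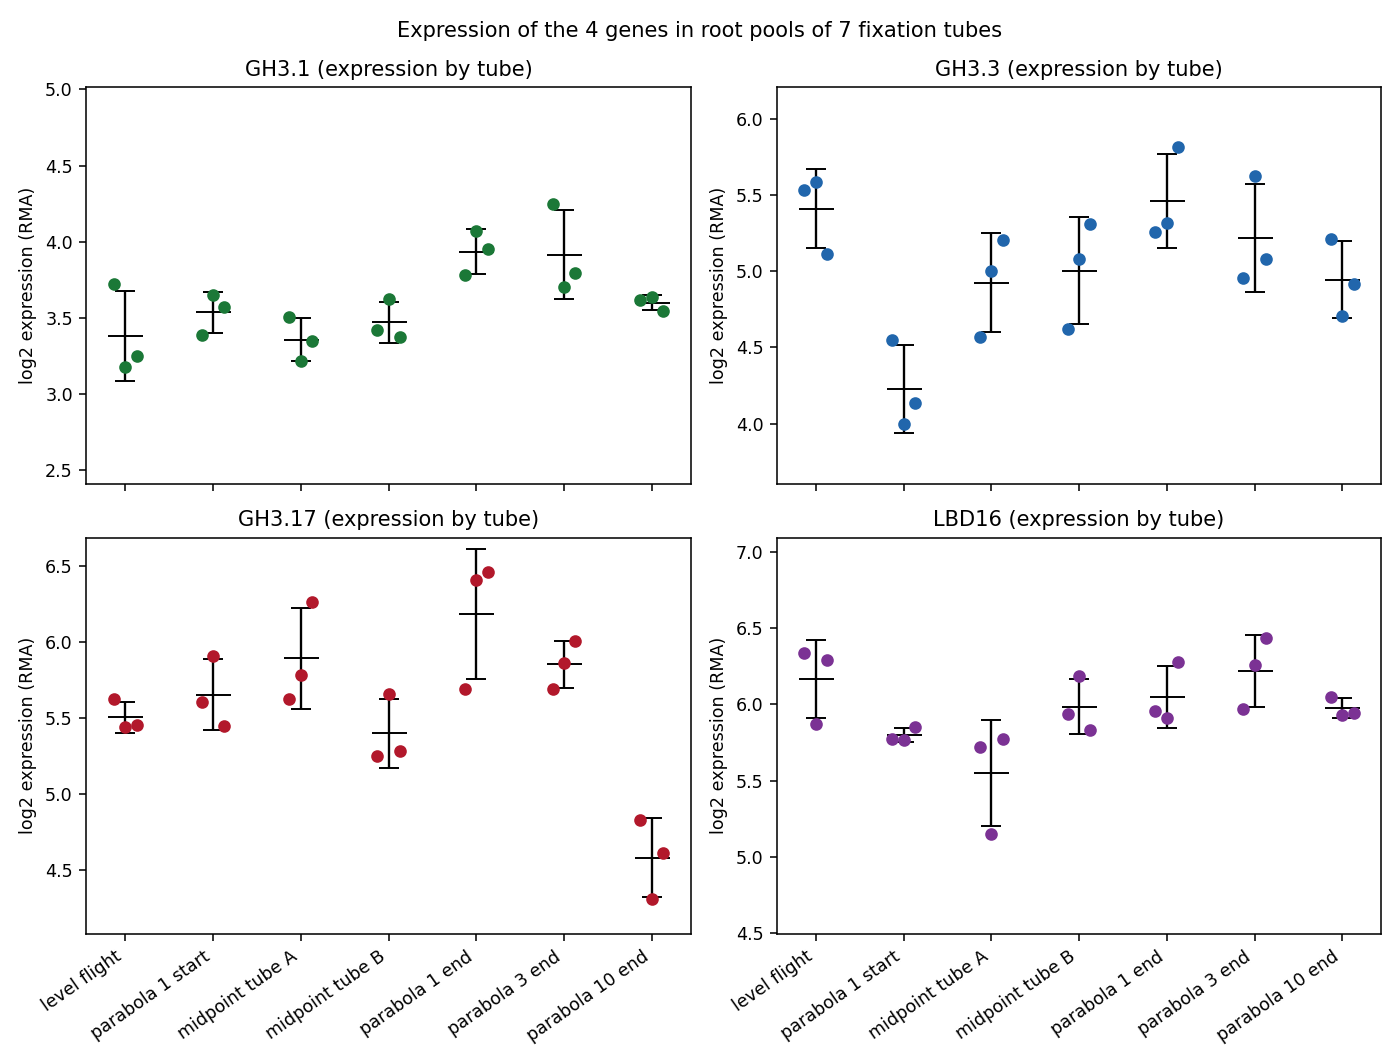
Log2 expression of GH3.1, GH3.3, GH3.17 and LBD16 on each of the 21 arrays (points), by tube, with the mean and SD of the 3 root pools of a tube. GH3.3 is lowest at parabola 1 start (mean 4.23), GH3.17 at parabola 10 end (4.58), LBD16 in midpoint tube A (5.55), and GH3.1 is highest at the ends of parabolas 1 and 3 (3.94 and 3.92).

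GH3.3 had its lowest mean at parabola 1 start, GH3.17 at parabola 10 end, and GH3.1 and LBD16 in midpoint tube A. The 3 GH3 genes had their highest mean at parabola 1 end, and LBD16 at parabola 3 end. Over all 7 tubes the moderated F test of limma called GH3.17 (adjusted p = 0.000409), GH3.3 (adjusted p = 0.00955) and GH3.1 (adjusted p = 0.0362), and LBD16 missed the threshold (adjusted p = 0.0805). That is 3 of 4 genes where the same test called 7.91% of all named probe sets. The 4 genes were chosen with earlier results of these data known, so this count is a description. All 4 lie on probe sets brighter than the median of the arrays, while the share covers bright and dim ones. The call of GH3.1 was lost when unnamed probe sets were tested too (adjusted p = 0.0711) and after leaving out any of 13 of the 21 arrays, and that of GH3.3 after leaving out parabola 1 start replicate 2 (adjusted p = 0.0566). With the tube as a random block, which lets root pools of a tube resemble each other by a correlation of 0.221, GH3.17 alone kept its F call (adjusted p = 0.0361), against 0.293 for GH3.3 and 0.612 for GH3.1.

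GH3.3, the auxin-induced conjugating enzyme, fell most at the very start of parabola 1. In level flight its 3 arrays read 5.53, 5.59 and 5.11. At parabola 1 start they read 4.55, 4.00 and 4.13, so that every array of that tube lay below every level flight array. The fall was -1.18 on the log2 scale (SE 0.22, 95% interval -1.64 to -0.73, 2.27-fold, limma adjusted p = 0.00262). It was the only one of the 4 genes that differed in this comparison, in which 4.16% of all named probe sets did. Leaving out any 1 of the 6 arrays kept the difference between -1.34 and -1.07 and below the threshold, while the tube as a random block gave an adjusted p of 0.0761.

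In the later tubes GH3.3 lay above its level at parabola 1 start and did not differ from level flight. Midpoint tube A read 4.57, 5.00 and 5.20 and midpoint tube B 4.62, 5.08 and 5.31, with means of 4.92 ± 0.33 and 5.00 ± 0.35 (SD, n = 3). Parabola 1 end read 5.25, 5.31 and 5.82, and its mean of 5.46 ± 0.31 was the highest of the 7. Both midpoint tubes overlapped level flight, and so did parabola 1 end, which had a difference of 0.05 from it (95% interval -0.41 to 0.51). Parabola 3 end read 4.96, 5.62 and 5.08, and parabola 10 end 5.21, 4.71 and 4.92. At parabola 10 end the difference from level flight was -0.47 (95% interval -0.92 to -0.01, adjusted p = 0.344), and 1 of its arrays, at 5.21, lay within the level flight range.

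Set against parabola 1 start, GH3.3 read higher on every array of the 5 later tubes, and the difference passed the test in 2 of them. It was higher by 1.23 at parabola 1 end (2.35-fold, adjusted p = 0.00818), where 0.664% of named probe sets differed, and by 0.99 at parabola 3 end (adjusted p = 0.0204), where 1.77% did. Both calls depended on single arrays. Without parabola 1 start replicate 2 the adjusted p-values were 0.0658 and 0.105. The first also missed the threshold without parabola 1 end replicate 3 (0.0512), and the second without parabola 1 start replicate 3 (0.0805) or parabola 3 end replicate 2 (0.137). With the tube block they were 0.269 and 0.348. The differences of 0.70 in tube A (adjusted p = 0.265), 0.78 in tube B (0.125) and 0.72 at parabola 10 end (0.0943) did not pass. These 5 comparisons share the arrays of parabola 1 start, which also enter the comparison with level flight.

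GH3.17, which conjugates auxin preferentially to glutamate, had its lowest level at the end of parabola 10. There its arrays read 4.83, 4.31 and 4.61, below all 18 arrays of the other tubes, of which the lowest read 5.25. Level flight read 5.62, 5.44 and 5.45. The fall from level flight was -0.92 (SE 0.20, 95% interval -1.33 to -0.51, 1.89-fold, adjusted p = 0.0217), in a comparison that called 1.45% of named probe sets and none of the other 3 genes. This call was lost without level flight replicate 1 (adjusted p = 0.0945), 2 (0.0549) or 3 (0.0511) and without parabola 10 end replicate 2 (0.115) or 3 (0.0680), although the difference stayed between -1.04 and -0.78. It was also lost with unnamed probe sets included (0.0517) and with the tube block (0.420).

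Before that, GH3.17 stood highest at the end of the first parabola. Parabola 1 end read 5.69, 6.40 and 6.46, all above level flight, with a mean of 6.18 ± 0.43. Its difference of 0.68 from level flight (95% interval 0.27 to 1.08) had an adjusted p of 0.09996, and an adjusted p of 0.0221 without parabola 1 end replicate 1, the lowest of the 3. None of the 4 genes differed between these tubes, against 1.14% of all named probe sets. Parabola 3 end read 5.69, 5.86 and 6.00 and parabola 1 start 5.61, 5.91 and 5.45. The arrays of parabola 3 end all lay above level flight, with a difference of 0.35 (adjusted p = 0.561), and those of parabola 1 start overlapped it.

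GH3.17 was also lower at parabola 10 end than in 4 of the 5 earlier parabola tubes. From parabola 1 end to parabola 10 end it was lower by 1.60 (difference -1.60, SE 0.20, 95% interval -2.00 to -1.19, 3.03-fold, adjusted p = 6.68e-05), where 2.33% of named probe sets differed. This was the largest difference of any of the 4 genes among the 21 pairs of tubes, and it passed under all 8 other settings (highest adjusted p 0.0141) and without any 1 of the 6 arrays (highest 0.00123). The difference from midpoint tube A was -1.31 (2.47-fold, adjusted p = 0.000469), where 5.55% of named probe sets differed, and passed with the tube block (0.0261) as well as without any 1 array (highest 0.00503). Against parabola 3 end it was -1.27 (adjusted p = 0.00404, background 0.549%) and against parabola 1 start -1.07 (adjusted p = 0.00375, background 2.65%). These last calls held without any 1 array and were lost with the tube block (0.207 and 0.114). Midpoint tube B read 5.25, 5.66 and 5.29, and parabola 10 end lay below it by 0.82 (difference -0.82, adjusted p = 0.0502), just outside the threshold, in a comparison with a background of 0.858%. All 6 comparisons share the arrays of parabola 10 end.

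**Figure D2:**
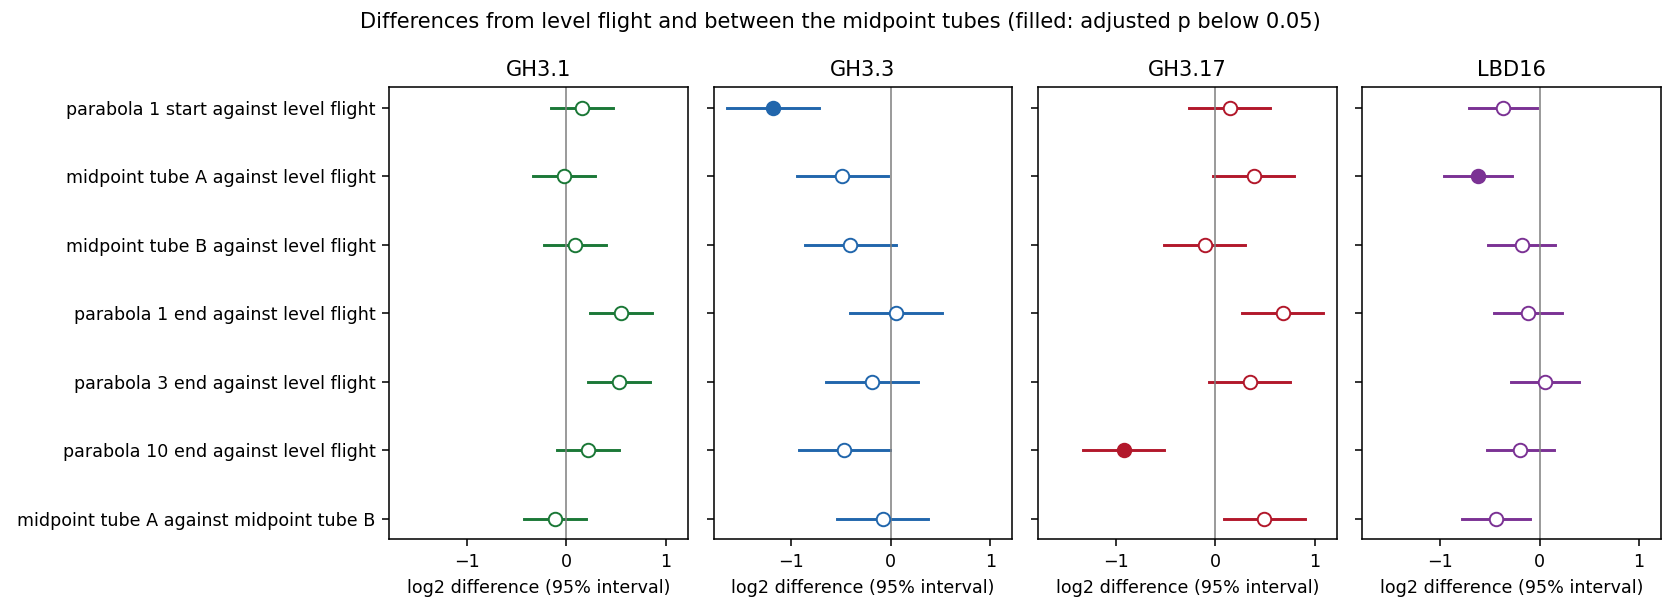
Log2 difference from level flight of each of the 4 genes in the 6 other tubes, and midpoint tube A against tube B, with 95% intervals from the limma fit. The intervals are not adjusted for the number of probe sets, and filled points have an adjusted p below 0.05. The filled points are GH3.3 at parabola 1 start (-1.18), LBD16 in midpoint tube A (-0.62) and GH3.17 at parabola 10 end (-0.92).

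GH3.1, another auxin-conjugating enzyme of the family, had its highest levels at the ends of parabolas 1 and 3 and did not differ from level flight in any tube. Its probe set was dim, with a mean of 3.60, and 58.2% of all probe sets on the array were dimmer. Parabola 1 end read 3.78, 4.07 and 3.95 and parabola 3 end 4.25, 3.70 and 3.80. Level flight read 3.72, 3.18 and 3.25, with the first array well above the others. All arrays of parabola 1 end were above level flight, while the lowest of parabola 3 end, at 3.70, lay below the highest of level flight. The differences from level flight were 0.55 (95% interval 0.24 to 0.86, adjusted p = 0.0753) and 0.53 (0.22 to 0.84, adjusted p = 0.123). The first had an adjusted p of 0.0253 without level flight replicate 1, 0.0451 among brighter probe sets alone and 0.0338 with array weights, and the second 0.0374 with array weights.

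Midpoint tube A had the lowest mean of GH3.1, close to that of level flight. Tube A read 3.50, 3.22 and 3.35 and tube B 3.42, 3.63 and 3.37. Against tube A, GH3.1 was higher by 0.58 at parabola 1 end (1.49-fold, adjusted p = 0.0413) and by 0.56 at parabola 3 end (1.47-fold, adjusted p = 0.0404), where 2.47% and 3.54% of named probe sets differed. The arrays did not overlap in either comparison. The first call was lost on leaving out any of the 6 arrays (adjusted p 0.0532 to 0.169) and the second on leaving out 4 of 6: tube A replicate 2 (0.166) or 3 (0.0831), or parabola 3 end replicate 1 (0.215) or 3 (0.0558). Leaving out parabola 3 end replicate 1, the highest array, reduced the second difference to 0.39. Against tube B, of the same moment, the differences were 0.46 (adjusted p = 0.265) and 0.44 (0.325), which did not pass. Both calls against tube A were lost with the tube block (0.453 and 0.401), with only the arrays compared (0.116 and 0.142) and with unnamed probe sets included (0.0657 and 0.0636). Parabola 1 start read 3.39, 3.65 and 3.57 and parabola 10 end 3.62, 3.64 and 3.55, with differences of 0.15 and 0.22 from level flight (adjusted p = 0.6896 and 0.566).

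LBD16, the lateral root regulator, was lowest in midpoint tube A. Level flight read 6.33, 5.87 and 6.29. Tube A read 5.72, 5.15 and 5.77, all below level flight. The fall was -0.62 (SE 0.16, 95% interval -0.96 to -0.28, 1.53-fold, adjusted p = 0.0272), and 5.14% of all named probe sets differed in this comparison, so that 1 of 4 genes stands beside a high background. Without tube A replicate 2, the lowest of the 21 arrays for this gene, the difference was -0.42 (adjusted p = 0.193). The call was also lost without level flight replicate 1 (0.128) or 3 (0.108), with only the arrays compared (0.138), with unnamed probe sets included (0.0507) and with the tube block (0.280).

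The second tube of the same moment gave LBD16 another value. Midpoint tube B read 5.94, 6.19 and 5.83, overlapping level flight, with a difference of -0.18 (95% interval -0.52 to 0.16, adjusted p = 0.850). None of the 4 genes differed between tube B and level flight, where 0.0458% of named probe sets did. Tube A lay below tube B on every array, by a difference of -0.44 (95% interval -0.77 to -0.10, adjusted p = 0.232), which did not pass. Without tube A replicate 2 it was -0.24 (adjusted p = 0.655). The corresponding difference of GH3.17 was 0.49 (95% interval 0.08 to 0.90, adjusted p = 0.278), with overlapping arrays, and 0.30 without tube A replicate 3. The difference of GH3.1 was -0.11 and that of GH3.3 -0.08. Between tubes A and B 1.4% of named probe sets and none of the 4 genes differed.

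In the other tubes LBD16 did not differ from level flight. Parabola 1 start read 5.77, 5.77 and 5.85, all below level flight but with a difference of -0.37 that did not pass (adjusted p = 0.258). Parabola 1 end read 5.96, 5.91 and 6.28, parabola 3 end 5.97, 6.26 and 6.44, and parabola 10 end 6.05, 5.93 and 5.94, and each overlapped level flight. None of the 4 genes differed from level flight at parabola 3 end, where 0.458% of named probe sets did. Against midpoint tube A, LBD16 was higher at parabola 3 end by 0.67 (SE 0.16, 1.59-fold, adjusted p = 0.0238). That call was lost without tube A replicate 2 (0.152) or parabola 3 end replicate 2 (0.0863) or 3 (0.109), with only the arrays compared (0.135) and with the tube block (0.310). Against tube B, of the same moment, parabola 3 end had a difference of 0.23 with overlapping arrays (adjusted p = 0.727).

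The tubes were then ordered by the mean of each gene. GH3.3 ran from parabola 1 end through level flight, parabola 3 end, tube B, parabola 10 end and tube A to parabola 1 start. GH3.17 ran from parabola 1 end through tube A, parabola 3 end, parabola 1 start, level flight and tube B to parabola 10 end. GH3.1 ran from parabola 1 end through parabola 3 end, parabola 10 end, parabola 1 start, tube B and level flight to tube A, and LBD16 from parabola 3 end through level flight, parabola 1 end, tube B, parabola 10 end and parabola 1 start to tube A. Of the 24 pairs of neighbours in these orders, limma called 0, and 3 had an unadjusted p below 0.05. The widest steps between neighbours were GH3.17 from tube B to parabola 10 end (0.82) and GH3.3 from tube A to parabola 1 start (0.70). The orders came from the same arrays as the tests, so neighbours lie close by construction. The counts thus do not show that neighbouring tubes are alike. The share over all named probe sets ordered in the same way was not counted.

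**Figure D3:**
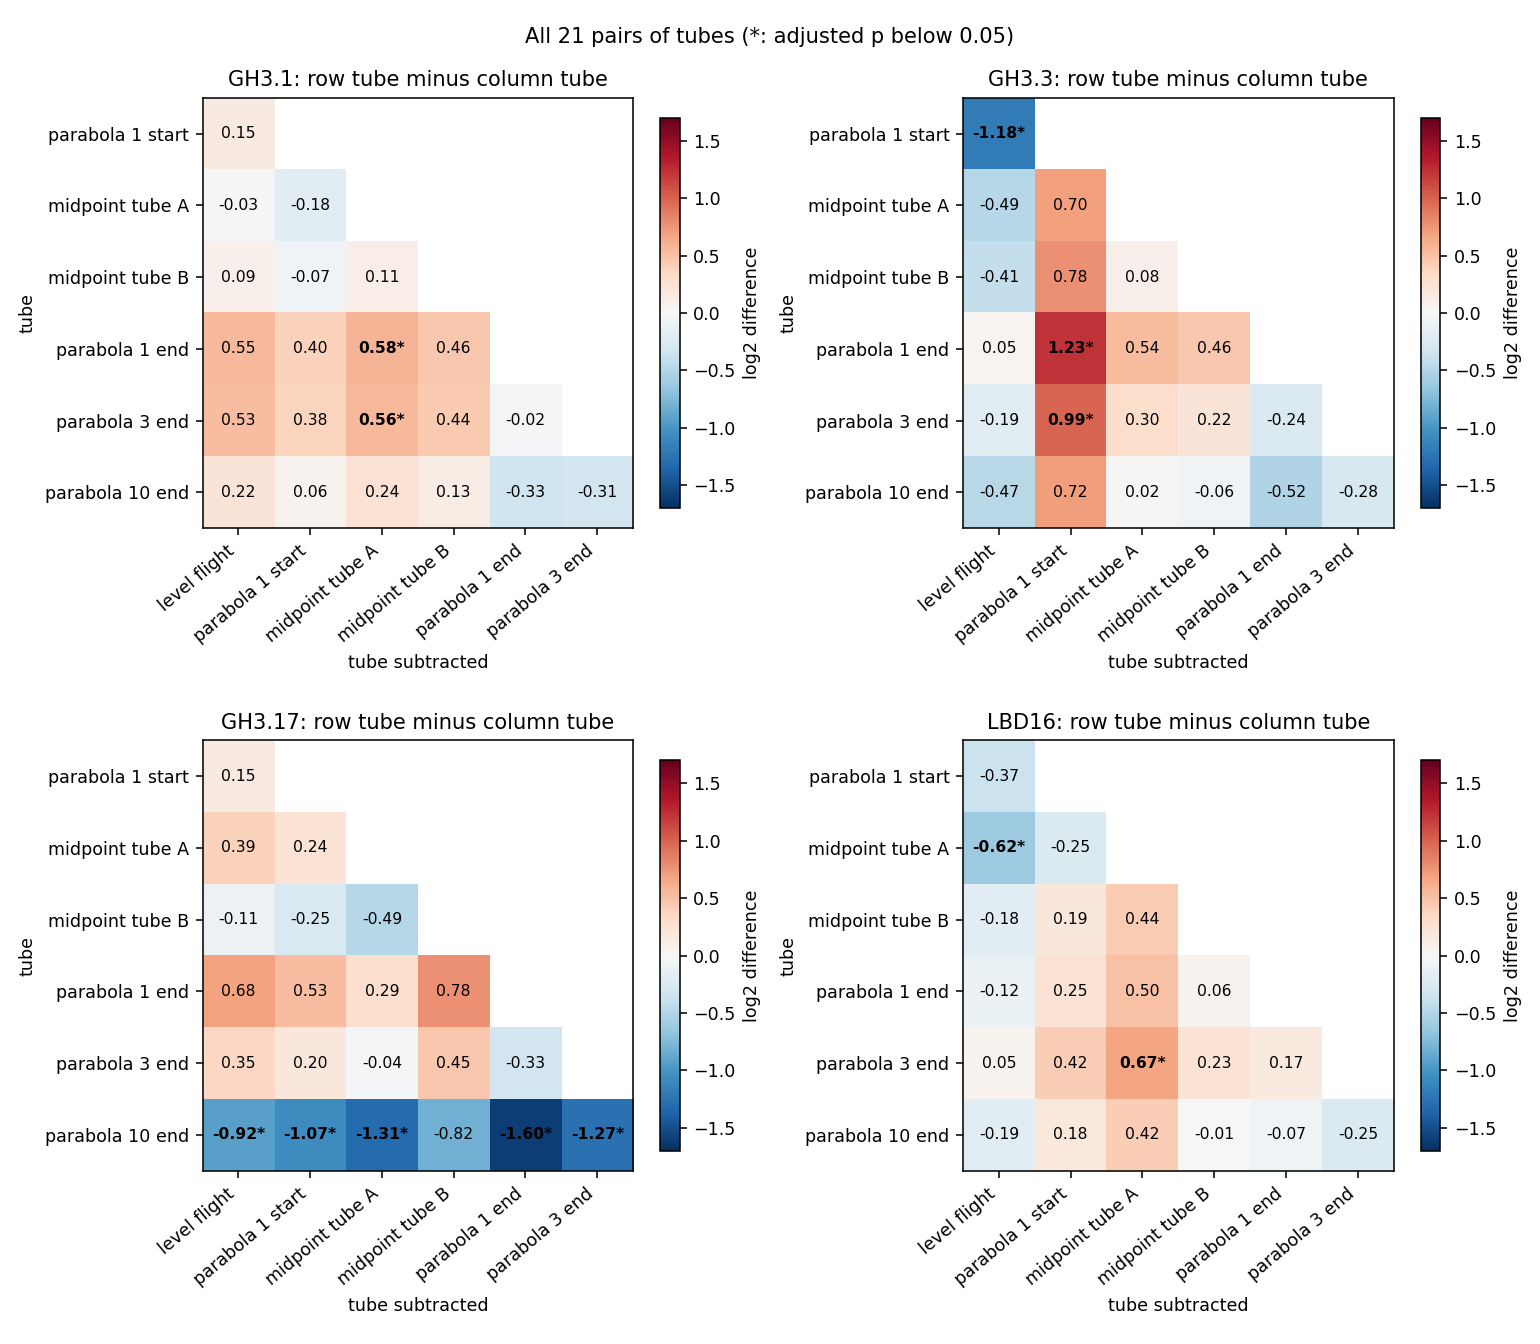
Log2 difference between every pair of the 7 tubes (row minus column) for each gene, with an asterisk where the limma adjusted p is below 0.05; tube B is shown minus tube A, so its sign is opposite to that in the text. Of 21 pairs GH3.1 passed in 2, GH3.3 in 3, GH3.17 in 5 and LBD16 in 2, beside 7.91%, 4.94% and 2.27% of all named probe sets that passed in at least 2, 3 and 5, and GH3.17 at parabola 10 end against parabola 1 end is the largest at -1.60.

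Of 84 tests, 4 genes in 21 pairs of tubes, 12 passed, where over all named probe sets 1.68% of the tests in these 21 pairs did. Of all named probe sets, 7.91% passed in at least 2 pairs, as GH3.1 and LBD16 did in 2, 4.94% in at least 3, as GH3.3 did, and 2.27% in at least 5, as GH3.17 did. The pairs share tubes, so the calls of a gene are not independent. The 4 genes were chosen with earlier results of these data known, so these counts are descriptions. No pair of tubes was called for more than 1 of the genes apart from parabola 3 end against midpoint tube A, where GH3.1 and LBD16 were both higher. None of the 4 differed in the remaining comparisons between parabola tubes: midpoint tube A against parabola 1 start (0.177% of named probe sets called), midpoint tube B against parabola 1 start (0.732%), parabola 1 end against midpoint tube B (0.132%), parabola 3 end against midpoint tube B (0.149%) and parabola 3 end against parabola 1 end. In the last, limma called 0 of 17481 named probe sets (0%), with 1202 at an unadjusted p below 0.05. Across the 21 arrays the 4 genes followed each other weakly, with Pearson correlations between 0.07 (GH3.17 with LBD16) and 0.42 (GH3.3 with LBD16). After subtracting the group means, r was 0.45 for GH3.3 with GH3.17, 0.44 for GH3.17 with LBD16 and -0.29 for GH3.1 with GH3.3. Over the 7 group means GH3.17 with LBD16 had r = -0.07. These correlations describe 21 arrays that share 7 tubes, with no test.

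The other genes of auxin metabolism, transport and response were covered thinly. Of 164 listed auxin and lateral root loci, 37 were on named probe sets, 33 of them besides the 4 genes, and 26 of the 37 had a mean below the median of the arrays. Of the 33, 5 differed in any of the 21 pairs of tubes, where 13.6% of all named probe sets did, and 4 passed the F test over all tubes, which called 7.91% of them. None of 7 conjugate hydrolases, which release auxin again, and none of 21 receptors and response factors was measured on a named probe set. The other settings and the leaving out of single arrays were run for the 4 genes and not for these genes. How far the calls below depend on them is thus not known.

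Among the 13 genes of conjugation and inactivation, 10 were measured, the 3 GH3 members included. AT1G14130 fell by 0.62 in midpoint tube A (adjusted p = 0.0224). Its probe set was dim, with a mean of 3.43 over all arrays. The level flight mean was 3.66 ± 0.20, that of tube A 3.03 ± 0.18 and that of tube B 3.57 ± 0.07 (SD, n = 3). WES1 (GH3.5), another auxin-conjugating enzyme, had values against level flight between 0.10 and 0.38 and did not pass in any tube. UGT74D1, a glucosyltransferase, did not differ from level flight, and was lower by 0.55 at parabola 1 end than in tube A (difference -0.55, adjusted p = 0.0263) and higher by 0.66 at parabola 10 end than at parabola 1 end (adjusted p = 0.00738). It lies outside the rule for named genes and was chosen after its values were seen. The median difference of the 10 genes from level flight lay between -0.02 and 0.06 in the 6 tubes, and that of all named probe sets between -0.003 and 0.03.

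Of the 11 other listed GH3 loci, 8 were measured. AT5G13370, a locus of that list, fell at parabola 1 start, as GH3.3 did. Its mean was 6.73 ± 0.25 in level flight and 5.75 ± 0.22 at parabola 1 start, a difference of -0.98 (adjusted p = 0.000909). It was higher than at parabola 1 start by 0.72 in tube B (adjusted p = 0.0388), by 0.95 at parabola 3 end (0.00298) and by 1.09 at parabola 10 end (0.000712). At parabola 1 end, where GH3.3 was at its highest, AT5G13370 had a difference of -0.65 from level flight (adjusted p = 0.0502). At parabola 10 end, where GH3.17 was at its lowest, it was at its highest, 6.84 ± 0.26. The other 7 did not pass in any tube against level flight, and their probe sets all lay below the median of the arrays.

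Of 25 biosynthesis genes 4 were measured, and of these YUC6 (YUCCA6), a flavin monooxygenase of the main route of auxin synthesis, had a lower mean than in level flight in each of the 6 tubes and passed in 3. Its mean was 3.64 ± 0.06 in level flight. It fell by 0.54 in tube A (adjusted p = 0.0453), by 0.71 at parabola 3 end (0.0390) and by 0.76 at parabola 10 end (0.0145). Its probe set was dim, with a mean of 3.15 over all arrays. The means at parabola 3 end (2.92) and parabola 10 end (2.87) lay below the median of all values (2.98). At parabola 3 end its arrays ran from 2.65 to 3.43. Its value in tube B was -0.66 (adjusted p = 0.159). The 6 comparisons share the level flight arrays, and the calls of YUC6 were not tried under the other settings. The only measured gene of 26 for transport was WAG2, a protein kinase that acts on auxin carriers. It was dim (mean 2.52) and rose by 0.67 at parabola 1 start (adjusted p = 0.0474). Its arrays there, from 2.28 to 3.16, overlapped those of level flight, from 2.01 to 2.44.

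Of the 29 Aux/IAA repressors, which hold auxin-response genes shut, 8 were measured and none passed in any of these tubes, with list medians between -0.13 and 0.11 against level flight. All but IAA18 lay below the median of the arrays. Of 32 lateral root genes 6 were measured, and LBD16 alone passed, in midpoint tube A. LBD29, a LATERAL ORGAN BOUNDARIES domain gene that acts beside LBD16 in lateral root formation, was dim, with a mean of 2.97 and differences from level flight between -0.19 and 0.16. The medians of the 6 lay between -0.09 and 0.11.

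**Figure D4:**
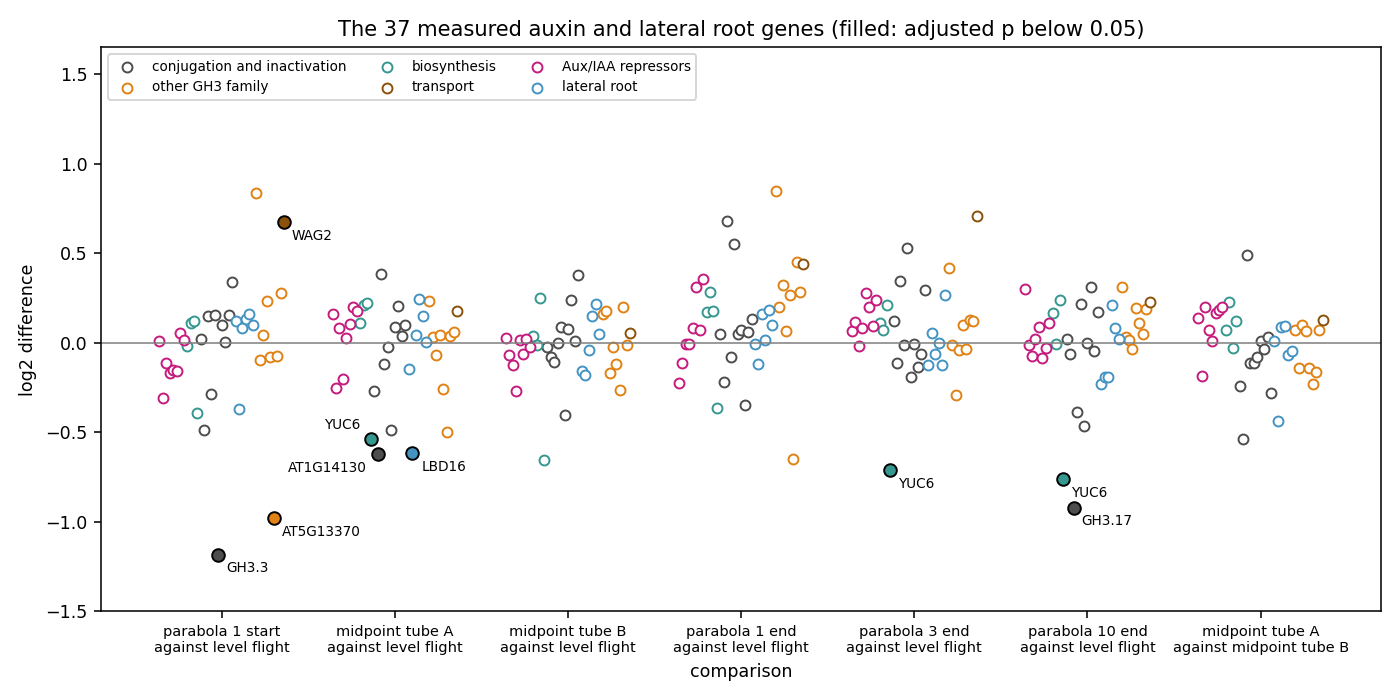
Log2 difference of the 37 measured auxin and lateral root genes from level flight in each tube, and of tube A from tube B, coloured by list, with filled and named points where the adjusted p is below 0.05. Of the 9 named points 8 lie below 0, and of all calls of named probe sets in the 6 comparisons with level flight 68.1% were lower. The points are not separate genes: YUC6 is named in tube A and again at the ends of parabolas 3 and 10, and these comparisons share the level flight arrays. GH3.3 at parabola 1 start (-1.18) is the lowest.

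The genes most alike to each of the 4 were then picked out by correlation. Likeness was measured as the Pearson correlation over the 21 arrays, among 8256 genes with a mean above the median, and the 5 highest are given for each gene. GH3.17 had the closest match, AT1G49450, with r = 0.945 over arrays, 0.991 over the 7 tube means and 0.712 after subtracting the tube means. AT1G49450 read 5.27 ± 0.37 at parabola 1 end and 3.86 ± 0.14 at parabola 10 end, its highest and lowest tubes, as for GH3.17. AT5G38010 (r = 0.883), AT5G02180 (0.860), AT3G08030 (0.835) and the cell wall expansin EXPB3 (0.823) came next. EXPB3 was lowest at parabola 10 end too, at 5.69 ± 0.19 against 6.91 ± 0.27 in level flight.

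LBD16 was followed by AT1G07135 (r = 0.853), BZIP60, a transcription factor of the unfolded protein response (0.852), AT2G19310 (0.851), EIF4A-2 (0.851) and AT5G64400 (0.834). BZIP60 was lowest in midpoint tube A, at 4.73 ± 0.44, against 5.66 ± 0.15 in level flight and 5.19 ± 0.21 in tube B. GH3.3 was followed by AT2G15220 (0.817), CCR2, a cinnamoyl coenzyme A reductase (0.800), AT1G63830 (0.795), AT1G07080 (0.786) and AT1G17080 (0.786). CCR2 had its lowest mean at parabola 1 start, 5.78 ± 0.003, and its highest at parabola 1 end, 6.96 ± 0.09. AT2G15220, the closest match, was instead lowest in midpoint tube A (mean 5.62, against 5.645 at parabola 1 start). The remaining genes listed for GH3.3 were lowest at parabola 1 start. The F test over all tubes did not call AT1G07080 (adjusted p = 0.0909) or AT1G17080 (0.0900). GH3.1 was followed by AT2G16230 (0.853), AT4G30097 (0.836), AT3G09500 (0.781), AT1G63770 (0.778) and GH9C3 (0.748). The F test over all tubes called none of the genes listed for GH3.1 (adjusted p from 0.0614 to 0.343). The genes most alike were selected for their correlation out of all these candidates, over arrays that share 7 tubes. The correlations thus describe likeness and carry no test.

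**Figure D5:**
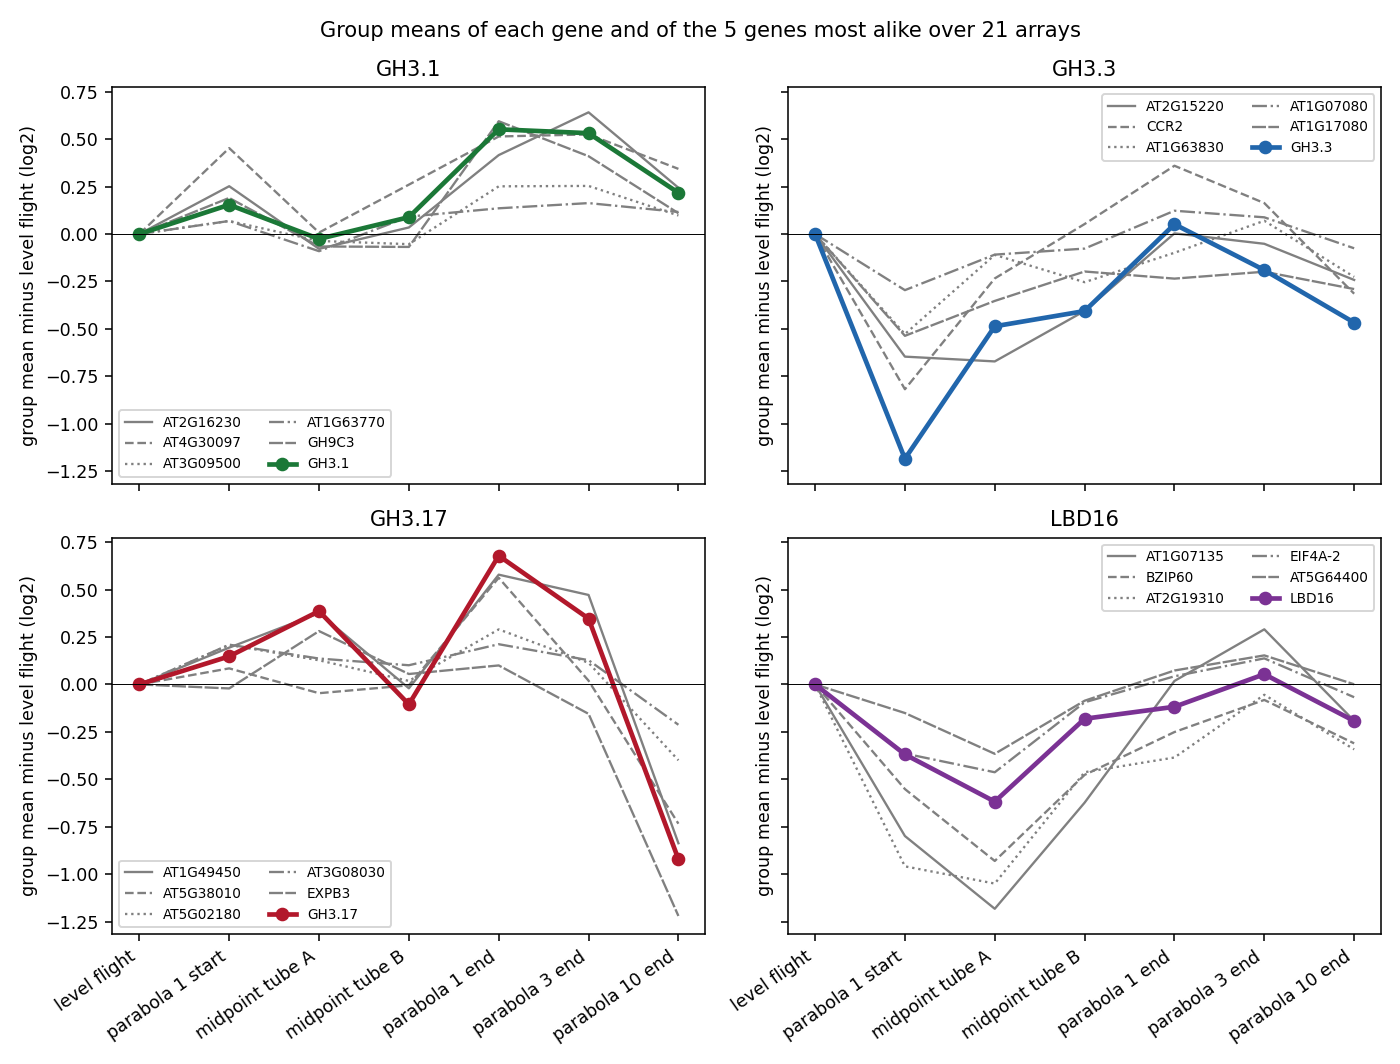
Difference of each tube's mean from level flight (log2) for the 4 genes (coloured) and for the 5 genes most alike to each over the 21 arrays (grey); lines join separate tubes of different roots. AT1G49450 runs along GH3.17 through all 7 tubes, down to parabola 10 end, where GH3.17 is at -0.92.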

How the data were processed

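The deposited values are log2 expression values per probe set of the Affymetrix AraGene 1.0 ST array. The submitters' processing notes list R 4.0.0, TAIR10, oligo, limma and RMA. The table held 38408 probe sets on 21 arrays with no missing value, from 0.69 to 13.3. Quantile normalization within RMA would hide any shift common to all transcripts. The number of arrays limits the precision.

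The array annotation named 17481 probe sets, of which 16722 carry 1 gene and 759 carry more. The other 20927 stayed without a name. Of the 16722, 16574 matched RefSeq (assembly TAIR10.1), from which symbols were taken. Coordinates are not given because the builds are not shown to be the same, and no sequence of the genes was used here.

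The 7 groups followed the labels. All named probe sets were fitted with limma 3.58.1 under R 4.3.3, by two-sided moderated tests on the means of 7 groups (residual degrees of freedom, 14), and p-values were adjusted by Benjamini-Hochberg within each of 21 pairs of tubes and for the F test. The threshold was an adjusted p of 0.05. The fit was tested on simulated data with 200 changed probe sets. The simulated arrays were drawn independently, without a tube effect. That test thus cannot show how calls fare where root pools of a tube resemble each other. Tables and figures were made with Python 3.11.15, pandas 2.3.3, numpy 2.4.6 and matplotlib 3.10.9. The settings varied in turn were the variance prior (trend, robust), the probe sets tested (brighter ones alone, or unnamed ones too), the arrays in the fit (the compared ones, or each left out), array weights, cyclic loess, and a block for replicate number or tube. The tube block used a correlation of 0.221, from a mean-square ratio of 1.85 for tube A against B over the spread within all 7 tubes, that is from 1 pair of tubes.

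The genes named are the 4 members, the genes of the auxin and lateral root lists that passed against level flight or between tubes A and B (at most 4 for each list and comparison), and the 5 genes most alike to each member. UGT74D1, WES1, LBD29, IAA18 and the root and shoot markers stand outside that rule, and the first 4 were chosen after their values were seen. A search of symbols and synonyms for SAUR followed by digits gave no named probe set, and SAUR genes were not analysed here. The members and lists were chosen with earlier results of these data known, so counts over them are descriptions and no list was tested.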

Additional observations from a re-analysis of the deposited data

Results flagged for a closer look

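Differences between tubes of different stages were flagged for all 4 genes, each by a limma test of the difference itself, with an adjusted p below 0.05. GH3.1 was higher than in midpoint tube A by 0.577 at parabola 1 end and by 0.557 at parabola 3 end. GH3.3 was higher than at parabola 1 start by 1.235 at parabola 1 end and by 0.994 at parabola 3 end. GH3.17 at parabola 10 end had a difference of -1.068 from parabola 1 start, -1.306 from midpoint tube A, -1.598 from parabola 1 end and -1.267 from parabola 3 end. LBD16 was higher by 0.671 at parabola 3 end than in midpoint tube A. With the tube as a random block, only the calls of GH3.17 against parabola 1 end and against midpoint tube A were kept. Each call listed for GH3.1, GH3.3 and LBD16 was lost on leaving out some single arrays, and those listed for GH3.17 were not. Against midpoint tube B the values of GH3.1 were 0.46 and 0.44, that of GH3.17 was -0.82 and that of LBD16 was 0.23, and none of these passed. Groups of 3 arrays are too small for a test of single outlying arrays, and every stage but the midpoint was a single tube, so stage and tube cannot be told apart.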

How the results depend on the processing

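The replicate number as a block and cyclic loess each left all 41 of the results on the 4 genes in direction and on their side of the threshold. The replicate numbers do not pair the samples, since same-numbered arrays had a median correlation of 0.0047 (-0.106 to 0.153, 3 of 63 over 0.1). The block gave 3 probe sets called in tube B against level flight. With the tube as a random block 29 of 41 results kept their side and 12 calls were lost. The values it ended were -1.184, 1.235 and 0.994 and the F test (0.293) for GH3.3, -0.920, -1.068 and -1.267 for GH3.17, 0.577, 0.557 and the F test (0.612) for GH3.1, and -0.617 and 0.671 for LBD16. Including unnamed probe sets ended 5 of these calls (GH3.1 0.577, 0.557 and F test 0.0711, GH3.17 -0.920, LBD16 -0.617), and only the arrays compared ended 4 of 37 (GH3.1 0.577 and 0.557, LBD16 -0.617 and 0.671). Calls were gained for GH3.1 at parabola 1 end with brighter probe sets (0.551) and array weights (0.649), at parabola 3 end with array weights (0.612), for GH3.17 at parabola 1 end with array weights (0.791), and for the F test of LBD16 with the variance trend (0.0489). Array weights turned GH3.1 in tube A against level flight from -0.026 to 0.0206.

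Leaving out 1 array kept 254 of 306 results, ended 40 calls, gained 3 and turned 9 small values. The ranges against level flight were -0.129 to 0.143 (GH3.1, tube A), -0.0141 to 0.257 (GH3.1, tube B; turned at -0.0141), 0.449 to 0.720 (GH3.1, parabola 1 end), -0.126 to 0.155 (GH3.3, parabola 1 end), 0.542 to 0.925 (GH3.17, parabola 1 end), -1.044 to -0.784 (GH3.17, parabola 10 end), -0.765 to -0.418 (LBD16, tube A) and -0.0939 to 0.180 (LBD16, parabola 3 end). GH3.3 in tube A against tube B ranged from -0.273 to 0.0984. Between stages the ranges were 0.508 to 0.654 and 0.390 to 0.664 (GH3.1), 1.058 to 1.396 and 0.792 to 1.155 (GH3.3) and 0.472 to 0.797 (LBD16). The adjusted p of the F test ranged from 0.0101 to 0.0813 (GH3.1), 0.00698 to 0.0566 (GH3.3) and 0.0464 to 0.223 (LBD16). Leaving out an array of another group changed 6 of 555 calls.

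The counts of all named probe sets moved more. Against level flight, in the order of the tubes, the tube block called 120, 201, 0, 8, 1 and 1. Including unnamed probe sets gave 1181, 1520 and 0 in the first 3 tubes. Only the arrays compared gave 445 in tube A, 1 in tube B and 76 at parabola 1 end. Brighter probe sets gave 307, 147 and 429 at the ends of parabolas 1, 3 and 10, array weights 199 and 491 at the ends of parabolas 3 and 10, and the variance trend 5 in tube B and 122 at parabola 3 end. Tube A against tube B gave 1 with the tube block and 0 with only the arrays compared. Leaving out 1 array gave 428 to 491, 548 to 944, 0 to 17, 69 to 172, 16 to 68 and 83 to 128, and 33 to 391 for tube A against tube B. The cause of these changes was not tested. The second-brightest probe set was not run because each gene has 1 named probe set.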
